A study of Mus musculus with 9 samples.

Results

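The genes described here encode, or build, the surface markers by which mouse fibroblasts on their way to pluripotency are told apart: Thy1, Fut4, Fut9, Cd44, Icam1, Pecam1, Kit and Itga6. They were taken by name, 8 of the 37310 genes of the annotation and of its 22380 protein-coding genes, and all 8 were found in it. For each gene the accessible regions were read from 10 kb upstream of the transcription start site (TSS) to 10 kb past its end, with the promoter, meaning the 3 kb before any annotated TSS of the gene, taken apart. Accessibility was measured by ATAC-Seq, in which a transposase cuts open chromatin and inserts sequencing adapters there.

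The cells were mouse embryonic fibroblasts (MEFs) that carried a GFP reporter in Oct4, infected with retroviruses that express Oct4, Sox2, Klf4 and c-Myc (OSKM). The time course held 7 libraries: MEFs at day 0 (D0) and cells at day 3 (D3), both unsorted, cells at days 6 and 9 that had lost Thy-1 from their surface (D6T- and D9T-), cells at days 12 and 16 that had gained SSEA-1 (D12S+ and D16S+), and fully reprogrammed iPSCs. Another pair of day 6 libraries came from cells given siRNA against the histone variant H3.3 (D6 siH3.3) or a non-targeting siRNA (D6 siNT). The sample labels give both as sorted Thy-1-, whereas the library list of the study states no sort for them. Each of the 9 libraries was the only one of its condition. No difference below therefore has a replicate check, no p-value is given, and the 95% intervals cover counting error only.

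Thy-1 is a glycoprotein tethered to the membrane of fibroblasts, and its loss is an early step of reprogramming. SSEA-1 is a carbohydrate, Lewis X, so no gene encodes it: Fut4 and Fut9 are fucosyltransferases that add its last fucose. CD44 binds hyaluronan and ICAM1 binds integrins of leukocytes, and both have served to divide reprogramming cells further. PECAM1 is an adhesion molecule of endothelial and mouse pluripotent cells, KIT is the receptor of stem cell factor, and integrin α6, the product of Itga6, is one chain of laminin receptors.

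Levels are given as CPM, the number of extended tags over the summit of a region per 1000000 tags of its library. The libraries held 13213117 to 31714845 tags and 36708 to 133132 regions. A library without a region at a site has only an upper limit there, its lowest called pileup, which lay between 0.331 CPM in D3 and 0.530 CPM in D9T-, the shallowest library. Bounds written "at least" or "at most" use that limit and are approximate, since a region also had to reach a minimum length. They take the called level as it stands, so unlike the measured ratios they include no counting error and are not firm. The D6T- library stood apart: the median promoter region of protein-coding genes lay at 2.71 CPM, against 0.820 to 1.93 CPM in the other 8 libraries. Levels over this median of the same library are given below as relative levels for the main elements. In a mixed population, fewer cells with an open site and less opening per cell cannot be told apart.

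Marker genes were counted by whether their promoter held a region. Of all protein-coding genes, 58.0% had one in D0, 63.0% in D12S+, 63.1% in D16S+ and 64.0% in iPSCs. Fibroblast markers had one for 5 of 8 genes in D0 and 3 of 8 in iPSCs. Col3a1, Lum and Prrx1 had none in D0, whereas Lum had one in D16S+ (1.23 CPM) and in iPSCs. Col1a1 stood at 0.883 CPM in D0 and 1.02 in iPSCs. The summed promoter level of the fibroblast markers ranged from 2.03 CPM in iPSCs to 10.6 CPM in D6T-. Pluripotency markers had one for 2 of 8 genes in D0, 7 of 8 in D12S+ and 8 of 8 in D16S+ and iPSCs, with a sum of 9.37 to 36.9 CPM, of which the promoter window of Pou5f1 alone held 9.37 to 26.3 CPM. Epithelial markers went from 0 of 6 in D0 to 6 of 6 in iPSCs, where their sum was 4.14 CPM. That sum was highest in D16S+ (6.90 CPM). Of the haematopoietic markers, Vav1 had a promoter region in all 9 libraries, Itgam in iPSCs alone, and Ptprc, Cd48, Gata1 and Spi1 (listed as Sfpi1) in none (sum 0.803 to 2.20 CPM). Of the endothelial markers, Tie1 and Emcn had none in any library, and Esam or Kdr led in each (sum 1.29 to 8.23 CPM). The part of such cells in the values below was not tested.

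The sequences of 7 elements carry most of what follows. Each is the 201 bases centred on the summit of an element, an element being the union of overlapping regions of all 9 libraries, and is written 5′ to 3′ on the strand of its gene in mm9. Capitals mark matches, on either strand, to TGANTCA (called AP-1 here), ATGCAAA (the octamer core bound by OCT4), CATTGT (a SOX core) or GGGTGTG (a KLF core). N is any base, so TGAATCA and TGATTCA counted as AP-1 matches beside TGACTCA and TGAGTCA. None of the elements in these loci held the E-box CACGTG in its window. The first is the element upstream of Thy1 that was open in MEFs and not called in iPSCs (chr9:43847941-43848141). It has 3 AP-1 matches, the first of them TGAATCA.
Thy1 −3.43 kb: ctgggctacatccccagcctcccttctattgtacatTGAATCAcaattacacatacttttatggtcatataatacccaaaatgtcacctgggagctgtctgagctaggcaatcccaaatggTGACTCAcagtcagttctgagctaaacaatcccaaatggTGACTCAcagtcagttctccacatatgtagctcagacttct
The next pair lies in introns of Fut9, one element open early (chr4:25572822-25573022) and one open late (chr4:25598056-25598256).
Fut9 154 kb: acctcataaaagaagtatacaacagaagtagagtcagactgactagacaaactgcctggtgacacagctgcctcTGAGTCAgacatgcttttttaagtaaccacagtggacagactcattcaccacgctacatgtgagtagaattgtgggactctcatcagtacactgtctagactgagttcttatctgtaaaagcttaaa
Fut9 129 kb: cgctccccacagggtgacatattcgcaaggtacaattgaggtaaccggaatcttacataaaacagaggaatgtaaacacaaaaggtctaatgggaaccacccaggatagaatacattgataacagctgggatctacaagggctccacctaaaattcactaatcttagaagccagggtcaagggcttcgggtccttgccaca
The Cd44 pair sets an intronic element seen at intermediate stages (chr2:102678449-102678649), with 3 SOX matches, against one that was open in all 9 libraries (chr2:102669512-102669712).
Cd44 63.3 kb: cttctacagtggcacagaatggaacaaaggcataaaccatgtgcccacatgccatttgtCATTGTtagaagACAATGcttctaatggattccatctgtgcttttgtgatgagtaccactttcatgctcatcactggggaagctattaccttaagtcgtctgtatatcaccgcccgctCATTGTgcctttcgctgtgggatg
Cd44 72.2 kb: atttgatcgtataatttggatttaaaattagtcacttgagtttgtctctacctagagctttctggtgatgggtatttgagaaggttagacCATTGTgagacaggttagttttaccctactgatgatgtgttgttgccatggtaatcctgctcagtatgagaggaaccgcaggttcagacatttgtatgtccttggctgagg
The last pair was open late only: an intron of Kit with an octamer match, called in iPSCs alone (chr5:75996017-75996217), and the promoter of Itga6 (chr2:71583269-71583469).
Kit 25.2 kb: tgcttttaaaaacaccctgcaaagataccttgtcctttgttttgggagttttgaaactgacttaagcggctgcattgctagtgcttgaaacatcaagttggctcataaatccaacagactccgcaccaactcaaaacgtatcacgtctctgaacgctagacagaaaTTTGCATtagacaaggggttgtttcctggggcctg
Itga6 −0.304 kb: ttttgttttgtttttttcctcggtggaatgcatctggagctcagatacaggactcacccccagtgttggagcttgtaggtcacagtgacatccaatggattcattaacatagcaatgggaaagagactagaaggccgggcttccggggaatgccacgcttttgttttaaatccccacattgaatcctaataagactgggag

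Thy1 (chr9:43851467-43856662, plus strand) is the gene behind the Thy-1 sort. Its strongest element (chr9:43847777-43848344) had its summit at −3.43 kb, just outside the promoter window, and stood at 1.42 CPM in D0, 1.42 in D3, 2.57 in D6T-, 0.908 in D9T- and 0.681 in D12S+. No region was called there in D16S+ or iPSCs, so that the D0 level was at least 3.77-fold higher than that of iPSCs. From D6T- to D12S+ it fell 3.77-fold (95% interval 2.00 to 7.74). Relative to the median promoter of each library, the element was highest in D0 (1.73) and lower in D3 (0.862), D6T- (0.949), D9T- (0.668) and D12S+ (0.353), so the rise from D0 to D6T- in CPM (1.81-fold, 1.20 to 2.75) turned into a fall on that scale. It was also called in D6 siH3.3 (0.857 CPM) and D6 siNT (1.06), so all 4 libraries that the labels give as Thy-1- had a region there.

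The TSS of Thy1 held a weak region in 5 libraries: 0.410 CPM in D0, 0.562 in D3, 0.625 in D12S+, 0.567 in D16S+ and 0.489 in iPSCs. All lay close to the limits of detection, and the 95% intervals of these 5 values overlapped. No region was called at the TSS in D6T-, D9T-, D6 siH3.3 or D6 siNT, the libraries that the labels give as Thy-1-. Their limits were 0.374, 0.530, 0.429 and 0.413 CPM, and each of the 5 intervals includes these limits. Whether the TSS differed with the sort was not tested. An element 10.8 kb downstream of the TSS, past the end of the gene, was called at 0.504 CPM in D0, 0.662 in D3 and 1.03 in D6T- and in no later library, with relative levels of 0.615, 0.401 and 0.380, highest in D0.

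Fut4 and Fut9, which complete SSEA-1, followed different courses. Fut4 (chr9:14552903-14556566, minus strand) is a short gene whose TSS held a region in 7 libraries. It stood at 0.378 CPM in D0, 1.03 in D3, 1.68 in D6T-, 0.530 in D9T-, 0.614 in D16S+, 0.790 in iPSCs and 0.505 in D6 siNT. The D9T- and D6 siNT regions lay inside the gene and did not reach the upstream window. No region was called in D12S+ or D6 siH3.3, where the limits were 0.454 and 0.429 CPM. Relative to the median promoter the highest level was that of iPSCs (0.775), ahead of D3 and D6T- (0.621 each), so the peak in D6T- did not hold on that scale. Fut4 was thus open before any SSEA-1 sort, and was not detectable at this depth in the first SSEA-1+ library.

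Fut9 (chr4:25536479-25727391, minus strand) stood higher at its first TSS in the SSEA-1+ libraries and iPSCs than before. The element there was not called in D0, D9T- or either siRNA library, stood at 0.496 CPM in D3 and 0.608 in D6T-, and reached 1.65 in D12S+ (95% interval 1.10 to 2.36), 1.79 in D16S+ (1.27 to 2.46) and 1.28 in iPSCs (0.886 to 1.79). The 3 late values overlapped each other in their intervals. Between D6T- and D12S+ the level rose 2.71-fold (1.36 to 5.68), while the median promoter stood 0.654-fold as high. Relative levels were 0.301 in D3, 0.224 in D6T-, 0.853 in D12S+, 0.975 in D16S+ and 1.25 in iPSCs.

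Inside Fut9, whose 191 kb are nearly all intron, early and late elements alternated. The element 154 kb from the TSS shown above was open at 1.26 CPM in D0, 1.42 in D3, 1.45 in D6T- and 0.597 in D6 siNT, and was not called from D9T- on. Its relative levels were 1.54, 0.862, 0.535 and 0.501, highest in D0. The element at 129 kb was called only from D12S+ on, at 0.568 CPM, then 0.756 in D16S+ and 0.978 in iPSCs. The element at 3.88 kb appeared at 0.756 CPM in D16S+ and 1.13 in iPSCs. A further element at 177 kb, upstream of an internal TSS, was called at 0.982 CPM in D6T-, 0.681 in D9T- and 1.02 in D6 siH3.3. As a result the Fut9 locus as a whole was level between D0 and iPSCs by its strongest region (1.26 and 1.28 CPM, ratio 1.01, 0.623 to 1.64), although these regions lay 154 kb apart. None of its 3 elements of D0 was among the 4 of iPSCs, where 72.4% of D0 elements genome-wide had no region in iPSCs.

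**Figure D1:**
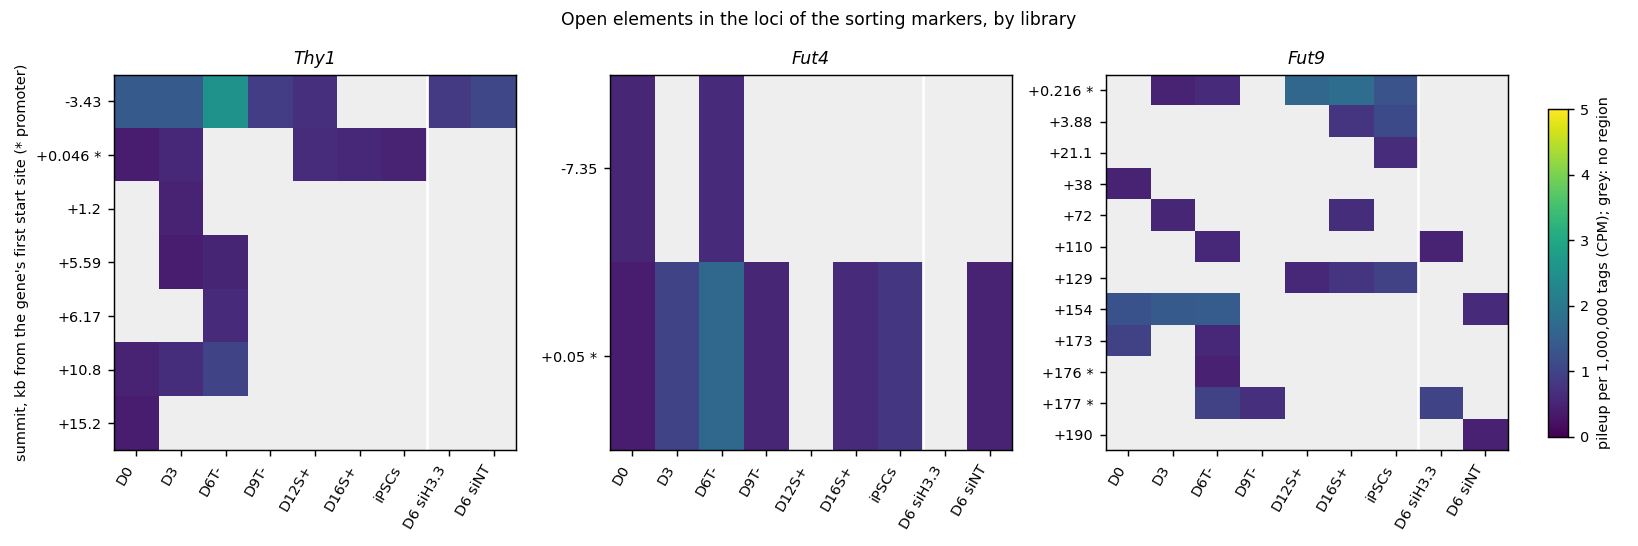
Elements in the loci of Thy1, Fut4 and Fut9. Rows are elements ordered by the distance of their summit from the first TSS in kb (an asterisk marks a promoter), columns are libraries with the siRNA pair right of the white line, and colour is the pileup per 1000000 tags (grey, no region). The Thy1 element at −3.43 kb is lit from D0 to D12S+, and the first TSS of Fut9 is brightest in D12S+, D16S+ and iPSCs.

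Cd44 (chr2:102651298-102741822, minus strand), a hyaluronan receptor, reached the highest promoter level of these genes. At the TSS the level was 0.883 CPM in D0, 2.28 in D3, 4.35 in D6T-, 1.82 in D9T-, 1.14 in D12S+ and 0.708 in D16S+, with no region in iPSCs. The interval of D6T- (3.51 to 5.33) lay above those of all other libraries, while D3 (1.78 to 2.89) and D9T- (1.16 to 2.70) overlapped. From D6T- to D12S+ the level fell 3.83-fold (2.34 to 6.56), and D0 was at least 2.35-fold above iPSCs. The D0 level behind this bound had an interval of 0.587 to 1.28 CPM, against an iPSC limit of 0.376. Relative levels kept this course, with 1.08, 1.38, 1.60, 1.34, 0.588 and 0.385 in the same order, but with a smaller peak. In the siRNA pair the TSS stood at 0.964 CPM in D6 siNT and 1.18 in D6 siH3.3.

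The intronic element at 63.3 kb (chr2:102678235-102679064) was the strongest of all elements in the 8 loci. It was not called in D0, stood at 1.29 CPM in D3, 5.00 in D6T-, 2.04 in D9T- and 1.31 in D12S+, and was not called in D16S+ or iPSCs. It also was open in both siRNA libraries, at 1.79 CPM in D6 siNT and 1.82 in D6 siH3.3. D6T- was at least 14.4-fold above D0, against a difference of the median promoter from 0.820 to 2.71 CPM. The excess of D6T- over D6 siNT in CPM, 2.79-fold (1.92 to 4.14), shrank to relative levels of 1.85 and 1.5. The fall from D6T- to D12S+ was 3.83-fold (2.42 to 6.30), the same size as at the TSS.

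The element at 72.2 kb in the same gene did otherwise. It was open in all 9 libraries, at 0.757 CPM in D0, 1.79 in D3, 1.73 in D6T-, 1.21 in D9T-, 2.16 in D12S+, 2.50 in D16S+, 1.02 in iPSCs, 1.02 in D6 siH3.3 and 0.780 in D6 siNT. Between D6T- and D12S+ its ratio was 1.25 (0.772 to 2.02), and between D0 and iPSCs 1.34 (0.746 to 2.43). In iPSCs it was 1 of 3 elements of the locus, and the only one shared with D0. The locus had 20 elements in D6T- and 5 in D0. Of the 22 Cd44 elements, 14 (63.6%) were open in D6T- and in neither D0 nor iPSCs, a class that held 31.6% of all elements of the genome, D6T- being the library with the most regions.

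Icam1 (chr9:20820404-20833241, plus strand) had no promoter region in D0, D9T- or the siRNA pair. Its TSS element stood at 0.595 CPM in D3, 0.795 in D6T-, 0.738 in D12S+, 1.32 in D16S+ and 0.640 in iPSCs. D16S+ was highest in CPM, with an interval (0.879 to 1.91) that overlapped that of D6T- (0.463 to 1.27), and also relative to the median promoter (0.719, ahead of 0.627 in iPSCs). The strongest signal in this locus lay downstream. Elements at 13.7, 14.9 and 17.5 kb were open in all 9 libraries, the second between 0.946 CPM in D0 and 3.55 in D6T- (relative levels from 0.849 in D6 siNT to 1.44 in D12S+), but the first touched the promoters of the neighbouring adhesion genes Icam4 and Icam5 and the second that of Icam5.

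**Figure D2:**
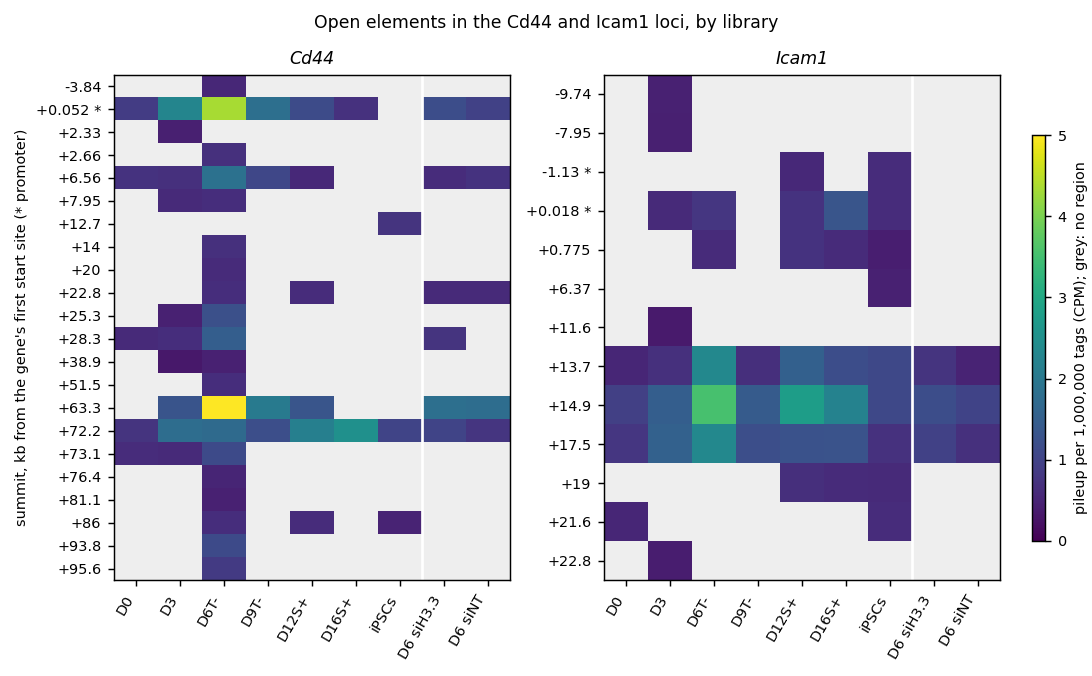
Elements in the loci of Cd44 and Icam1, drawn as in the plot of the sorting markers (rows by kb from the first TSS, columns by library, colour the pileup per 1000000 tags up to 5, grey where no region was called). The Cd44 TSS and the element at 63.3 kb peak in D6T- (4.35 and 5.00), while the element at 72.2 kb is coloured in every column.

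In Pecam1 (chr11:106515531-106611942, minus strand) 5 of 6 elements of D0 had no region in iPSCs, against 72.4% of D0 elements genome-wide. Of its 7 elements in iPSCs, 6 had none in D0, against 62.7% genome-wide. The upstream element at −0.627 kb, which also touches the promoter of Gm885, was called at 0.473 CPM in D0, 0.529 in D3 and 1.03 in D6T-, and in no other library. Relative to the median promoter it was highest in D0 (0.577, against 0.321 in D3 and 0.380 in D6T-). The intronic element at 83.9 kb had the same span, with 0.977, 0.794 and 1.12 CPM and relative levels of 1.19, 0.481 and 0.414. Only the element at 27.7 kb was shared by D0 (0.694 CPM) and iPSCs (0.828), and it was also called in D3 (0.827), D6T- (1.08), D12S+ (0.568) and D16S+ (0.756). In iPSCs 6 elements appeared that D0 lacked, the strongest at 26.1 kb with 0.941 CPM and another, 0.602 CPM, at an internal TSS at 35.4 kb. All 6 were called in no other library, at 0.451 to 0.941 CPM against an iPSC limit of 0.376.

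Kit (chr5:75970941-76052747, plus strand) had a region at its TSS in D3, D6T- and all 3 late libraries. In D0 the only region nearby had its summit 0.886 kb inside the gene (0.410 CPM), outside the promoter window. At the TSS itself the level was 0.728 CPM in D3, 0.654 in D6T-, 1.25 in D12S+, 1.65 in D16S+ and 1.32 in iPSCs, with none in D9T- or the siRNA pair. The intervals of the 3 late libraries overlapped. With the D0 region counted as the same element, iPSCs were 3.21-fold above D0 (1.66 to 6.62), but this ratio sets different summits against each other. The iPSC region that overlapped the D0 region had its summit at 0.939 kb and stood at 0.752 CPM (0.460 to 1.16). Its interval overlapped that of D0 (0.218 to 0.701). The intronic element at 25.2 kb was called at 0.828 CPM in iPSCs alone, and its neighbour at 25.8 kb at 0.614 CPM in D16S+ and 0.451 in iPSCs.

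Itga6 (chr2:71583673-71696473, plus strand) had a late and an early start site. The promoter of the first TSS, −0.304 kb, was not called through D9T- and then stood at 1.02 CPM in D12S+, 0.708 in D16S+ and 1.28 in iPSCs. The intronic element at 6.04 kb had the same timing, with 0.738, 0.567 and 1.39 CPM. In contrast, the element at an internal TSS at 41.3 kb was open from the start, at 0.441 CPM in D0, 1.12 in D3, 1.64 in D6T-, 1.82 in D12S+, 1.37 in D16S+, 0.790 in iPSCs and 0.482 in D6 siH3.3, and was not called in D9T- or D6 siNT. The D0 region of this element lay inside the gene past that TSS and did not reach the promoter window, and the ratio of iPSCs to D0 over the element was 1.79 (0.868 to 3.81). The element at 56.3 kb was called in all 7 time-course libraries, between 0.504 CPM in D0 and 1.82 in D6T-, with relative levels from 0.385 in D16S+ to 0.738 in iPSCs. Of the 11 elements of iPSCs in this locus 8 had no region in D0, against 62.7% of iPSC elements genome-wide. All 3 elements of D0 were still called in iPSCs.

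**Figure D3:**
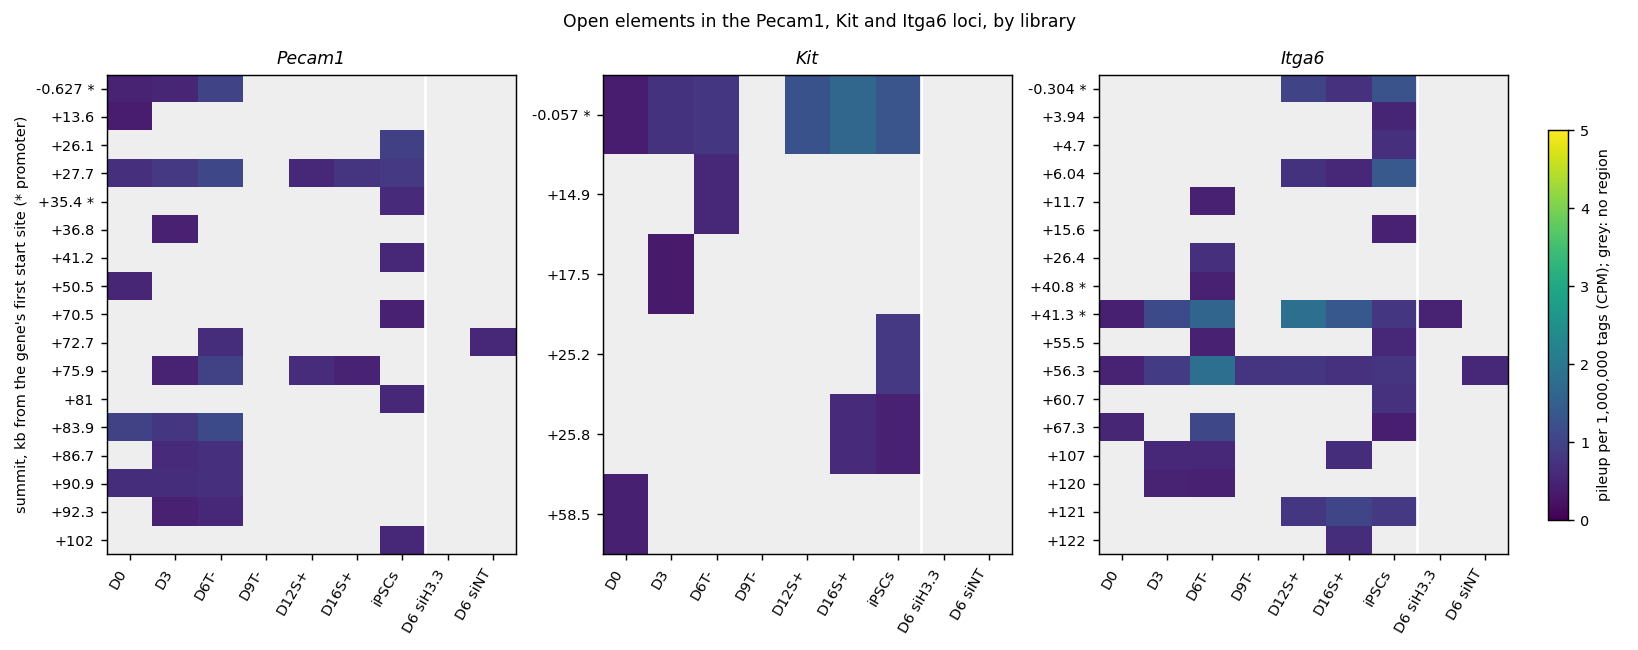
Elements in the loci of Pecam1, Kit and Itga6, drawn as in the plots of the other loci (rows by kb from the first TSS, columns by library, colour the pileup per 1000000 tags, grey where no region was called). Most Pecam1 rows coloured in D0 to D6T- are grey in iPSCs, and the Itga6 rows at −0.304 and 6.04 kb are coloured in D12S+, D16S+ and iPSCs only.

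Over all 8 loci there were 96 elements, of which 62 had their summit in an intron and 4 touched a promoter of another protein-coding gene. D0 held 29, D3 41, D6T- 56, D9T- 11, D12S+ 25, D16S+ 25, iPSCs 39, D6 siH3.3 13 and D6 siNT 14. Only 5 were open in all 7 time-course libraries, 3 of them downstream of Icam1. Of the 29 elements of D0, 17 (58.6%) had no region in iPSCs, below the 72.4% of D0 elements over the whole genome, and of the 39 of iPSCs, 27 (69.2%) had none in D0, against 62.7% genome-wide. A further 29 (30.2%) were open in D6T- but in neither end point, near the 31.6% of all elements of the genome.

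AP-1 matches, in the wide form TGANTCA, fell mostly in the early and intermediate elements. They were found in 7 of the 17 D0 elements without a region in iPSCs (41.2%), in 11 of the 29 D6T- elements open at neither end (37.9%) and in 3 of the 27 iPSC elements without a region in D0 (11.1%). The same classes over the genome had 35.9%, 36.7% and 6.69%, and all 210151 elements 24.3%, so these loci lay near their background. The octamer core was in 2 of the 96 windows (2.08%, against 4.42% of all elements), that of the Kit intron shown above and one in Cd44 at 25.3 kb. SOX matches were in 14 (14.6%, against 13.0%) and KLF matches in 10 (10.4%, against 8.07%). By class, KLF matches were in 5 of the 17 D0 elements without a region in iPSCs (29.4%, against 6.70% genome-wide). They were in 2 of the 27 iPSC elements without a region in D0 (7.41%, against 9.41%). Of the 29 D6T- elements open at neither end, 2 held one (6.90%, against 8.63%). These small counts were not tested. The CpG content within 500 bp of the TSS, as observed over expected, ran from 0.163 in Itga6 to 0.675 in Kit, at the percentiles 16.7 and 62.5 of 22355 coding promoters.

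The number of the 8 genes with a promoter region was read against all protein-coding genes in the same library. It was 4 in D0, where 58.0% of protein-coding genes had one, 8 in D3 (67.8%), 7 in D6T- (68.3%), 2 in D9T- (50.5%), 6 in D12S+ (63.0%), 7 in D16S+ (63.1%) and 7 in iPSCs (64.0%). In the siRNA pair 3 had one in D6 siH3.3 (54.3%) and 1, Cd44, in D6 siNT (54.9%). D9T- and the siRNA pair thus had the fewest. The 2 of D9T- were Cd44 and Fut9, the latter at its internal TSS only.

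**Figure D4:**
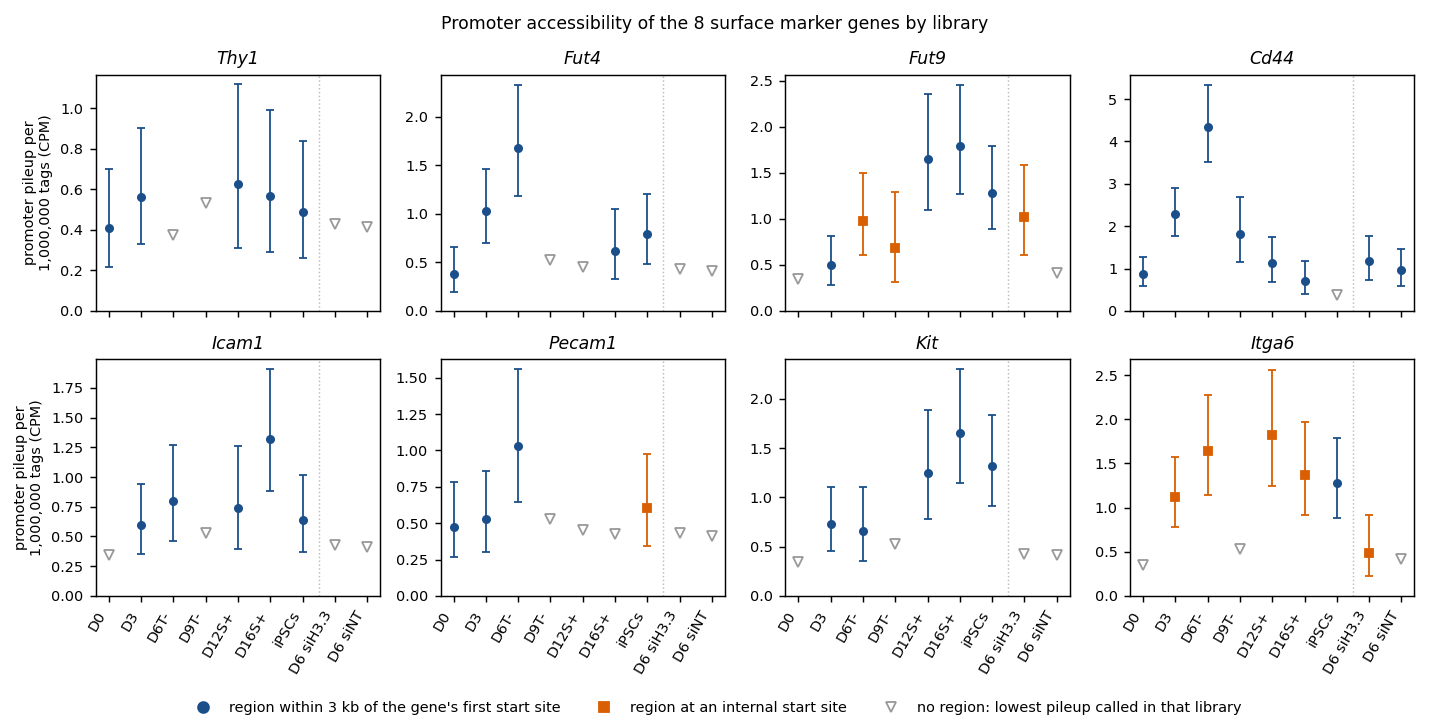
Promoter level of each gene by library. The y axis is the highest promoter pileup per 1000000 tags with its 95% Poisson interval (counting error only), blue circles are regions within 3 kb of the first TSS, orange squares regions at an internal TSS, and grey triangles the lowest called pileup of a library without a region reaching the window. Cd44 peaks in D6T- at 4.35, and Fut9 and Kit stand highest in D16S+ at 1.79 and 1.65 on this scale.

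Between D0 and iPSCs, the start and end of reprogramming, the promoters of Fut4, Fut9, Kit and Itga6 were more than 2-fold higher in iPSCs and that of Cd44 more than 2-fold lower. Among the 15354 protein-coding genes with a promoter region in either library, 15.5% were past 2-fold higher and 2.26% lower, and the median ratio of those measured in both was 1.26. Fut4 rose 2.09-fold with an interval of 0.981 to 4.66 that includes no difference, and over the median promoter 1.69-fold, under the threshold. Fut9 and Itga6 were at least 3.69-fold and Kit at least 3.80-fold higher, since D0 had no region that reached these promoter windows. These bounds leave out the D0 regions just inside Kit (0.410 CPM) and past the internal TSS of Itga6 (0.441 CPM), described above. Icam1 was at least 1.84-fold higher. Thy1 had a ratio of 1.19 (0.510 to 2.79), or 0.963 over the median promoter. Pecam1 had a ratio of 1.27 (0.589 to 2.76) between regions at different places.

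From D6T- to D12S+, across the change of the sort from Thy-1 to SSEA-1, Fut4 was at least 3.71-fold, Cd44 3.83-fold and Pecam1 at least 2.26-fold lower, and no promoter of these genes was past 2-fold higher. Of 15616 protein-coding genes, 20.0% were past 2-fold lower and 1.30% higher, with a median ratio of 0.654. Over the median promoter Fut4 (at most 0.379 times the D6T- level) and Cd44 (0.367 times) were past 2-fold lower as well and Pecam1 was not. On that scale Thy1 (at least 2.35-fold), Fut9 (2.36-fold) and Kit (2.68-fold) were past 2-fold higher. The Thy1 bound rests on 11 tags in D12S+ and includes no counting error. In CPM Thy1 was at least 1.67-fold higher, and the D12S+ interval (0.312 to 1.12 CPM) includes the D6T- limit of 0.374 CPM. Kit in CPM had a ratio of 1.91 (0.934 to 4.03), Itga6 1.11 (0.666 to 1.85) and Icam1 0.929 (0.415 to 2.03). Both Fut9 ratios, 1.68 in CPM (0.924 to 3.09) and 2.36 over the median promoter, set its internal TSS in D6T- against its first TSS in D12S+. At the first TSS alone, in CPM, Fut9 rose 2.71-fold and Itga6 at least 2.73-fold.

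With siRNA against H3.3, given to ask what the variant does early in reprogramming, 1 promoter of these genes was past 2-fold higher than with the non-targeting siRNA and none lower. This was Fut9, at least 2.46-fold, by the region at its internal TSS 177 kb inside the gene. The count was 0 with the first TSS alone, with a promoter of 1 kb, with equal numbers of the strongest regions and over the whole locus. Over 12942 protein-coding genes 0.935% were past 2-fold higher and 0.904% lower, with a median ratio of 1.04. Cd44 had a promoter ratio of 1.22 (0.641 to 2.34), and its element at 63.3 kb a ratio of 1.02 (0.623 to 1.65). The upstream element of Thy1 had a ratio of 0.812 (0.401 to 1.60). Promoters of Thy1, Fut4, Icam1, Pecam1 and Kit had no region in either library. D6 siNT itself was far from the D6T- library of the same day, with 78.1% of 15306 protein-coding promoters past 2-fold lower, 0.00653% higher and a median ratio of 0.374, and 5 of the 8 genes past 2-fold lower. The cause was not tested.

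**Figure D5:**
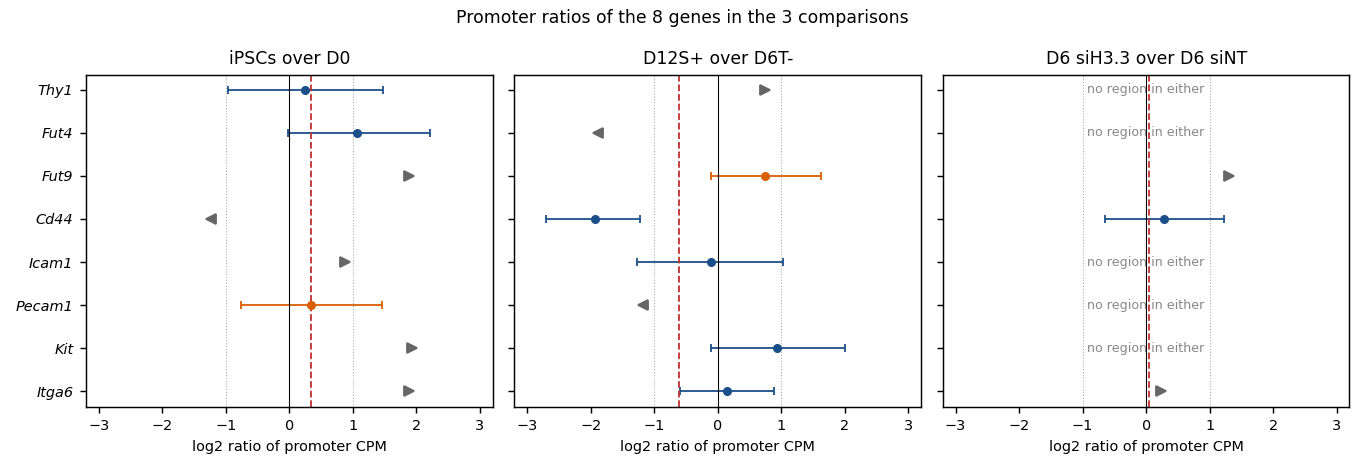
Promoter ratios of the 8 genes on a log2 axis in the 3 comparisons. Blue points are ratios of regions at the same place and orange points of regions at different places, with 95% intervals of counting error, arrowheads are bounds where 1 library had no region, the dashed line is the median of all protein-coding promoters measured in both, and dotted lines mark 2-fold. Cd44 lies to the left in the first 2 panels, and 5 genes have no region in either library of the siRNA pair.

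The wider pathways were read from lists of related genes between D0 and iPSCs, beside the 15.5% and 2.26% of all protein-coding genes. Of the other genes of fucose and Lewis X synthesis, 21 of 22 had a promoter region in either library. The median ratio was 1.5 over the 18 measured in both. Of the 21 genes, 6 were past 2-fold higher and none lower. They included the sialyltransferase gene St3gal6 (3.58-fold), Tsta3 (2.23-fold) and Fpgt (2.13-fold), which serve the supply of GDP-fucose, and Fut8 (2.00-fold), which fucosylates the core of N-glycans. Of the partners and ligands of the markers, 16 of 20 had a region (median 1.47 over the 12 measured in both). Of the 16 genes, 7 were past 2-fold higher and none lower. Among them were Kitl (3.15-fold), which encodes the ligand of KIT, and the laminin genes Lama5 (2.27-fold) and Lama1 (2.15-fold). Itgb1 (2.21-fold) was another, and encodes an integrin chain that pairs with α6. Itgb4, the gene of a further partner chain of α6, was not past 2-fold (1.53-fold). Has2, which encodes a synthase of the CD44 ligand hyaluronan and was picked out after its values were seen, had no region at either end, in D9T- or in D6 siNT, and stood at 0.860 CPM in D3, 1.08 in D6T-, 0.454 in D12S+, 0.850 in D16S+ and 0.429 in D6 siH3.3.

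Of the fibroblast surface genes, 14 of 15 had a region, and 2 were past 2-fold higher, Mcam (2.49-fold) and Anpep (at least 2.71-fold). Ly6a, which encodes SCA-1, was the 1 gene past 2-fold lower (at least 2.51-fold), with 0.946 CPM in D0, 0.761 in D3, 2.24 in D6T- and 0.757 in D9T- and no region from D12S+ on. The median ratio of the 11 genes of this list measured in both libraries was 1.34. Of the pluripotent and epithelial surface genes, 14 of 15 had a region and 6 were past 2-fold higher, none lower. Their median ratio, 1.33, covers only the 7 genes measured in both libraries and leaves out those without a region in D0. Alpl, which encodes alkaline phosphatase, rose 2.01-fold, and F11r (at least 3.90-fold), Tdgf1 (at least 3.69-fold) and the E-cadherin gene Cdh1 (at least 3.36-fold) had no region in D0. In all 21 of the 65 genes with a region were past 2-fold higher and 1 lower. Over the median promoter 12 were higher and 2 lower, and with equal numbers of the strongest regions 13 and 0. The median ratio of all protein-coding promoters was 1.26, and Fut8 and Alpl lay on the threshold.

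The genes most like each marker were sought by the Pearson correlation of log2(CPM + 0.5) of the promoter over the 7 time-course libraries, with a missing region entered as 0. With 7 points that share the scale of each library, these values are descriptions. They were led by Arhgap30 for Thy1 (r = 0.997), B3gat2 for Fut4 (0.992), Scg3 for Fut9 (0.998), Nav3 for Cd44 (0.998), Jak3 for Icam1 (0.999), Acvrl1 for Pecam1 (0.998), Mpp3 for Kit (0.996) and Rnf208 for Itga6 (0.999). The next in order were Kirrel2 and Acy3 for Thy1, 4931429L15Rik and Gpx7 for Fut4, BC068157 and Kcnip2 for Fut9, Gm14137 and Ly96 for Cd44, Slc44a3 and Sept1 for Icam1, Mpo and Jph3 for Pecam1, Rgs14 and Aspg for Kit, and Gm9934 and 2900097C17Rik for Itga6. Such values were common: 35 genes passed 0.9 for Thy1 and 803 for Itga6, of 13350 compared with each.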

How the data were processed

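ATAC-Seq was measured in 9 libraries, 1 per condition, and groups were taken from the sample labels. Per the study's methods and the file headers, the authors aligned 51 bp reads to mm9 with STAR, removed duplicates with Picard and ran MACS2 2.1.0.20151222 on each library, with no control and no local background (q-value threshold 0.05, each tag lengthened to 200 bp). The deposited files give, for every summit, an unscaled pileup (a signal that counts the tags covering it), a fold enrichment (its ratio to tags spread evenly) and the −log10 of its p-value and q-value, the last of which ranked regions in 1 alternative. Total tags in the headers include mitochondrial tags.

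Overlapping peaks of a library were joined, the highest pileup was kept and divided by the total tags of the library. Genes were those of GENCODE vM1 on NCBIM37, the same build, and any overlap of 1 bp counted. Promoter ratios used the 3 kb upstream of any TSS. Ratios of counts have exact conditional (Clopper–Pearson) 95% intervals and levels exact Poisson intervals. The scripts were tested on simulated data. Calculations used Python 3.11.15, numpy 2.4.6, pandas 2.3.3, scipy 1.17.1 and matplotlib 3.10.9. All 8 genes and the list genes past 2-fold (up to 4 per list and direction, those measured on both sides first) were named. The members and lists were chosen with earlier results of these data known. Other promoter windows, thresholds, scalings and the whole locus were tried. RNA and ChIP libraries were not analysed here.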

Additional observations from a re-analysis of the deposited data

How the results depend on the processing

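No paired analysis was possible because each condition had 1 library, and for the same reason no library could be left out. Of 95 alternatives, 70 stayed within 1.5 times of the count given above and 25 did not, and the cause was not tested. With the 36708 strongest regions of each library, 1 of the 8 genes had a promoter region in D0, 3 in D3 and 3 in D6T-, 0 were lower in iPSCs than in D0, 0 were higher with siH3.3, and of the list genes 13 were higher and 0 lower in iPSCs. With the first TSS alone, 1 gene had a promoter region in D9T- and 1 in D6 siH3.3, 2 were higher in D12S+ than in D6T- and 0 higher with siH3.3. With a promoter from 1 kb upstream to 100 bp downstream, 2 had a region in D6 siNT, 1 was higher in D12S+, 0 were higher with siH3.3 and 0 list genes were lower in iPSCs. Over the whole locus, with or without regions at other promoters, 2 were higher in iPSCs than in D0 and 0 higher with siH3.3. Over the median promoter, 3 were higher in D12S+, and 12 list genes were higher and 2 lower in iPSCs. With a fold of 1.5, 3 were higher in D12S+, and 34 list genes were higher and 3 lower in iPSCs. A scaling without the estimated mitochondrial tags (2.32% to 11.2% of a library), chosen after seeing the data, and the deposited fold enrichment moved no count by more than 1.5 times. Many values lie close to the detection limits, so a missing region, above all in D9T-, is not absence of accessibility.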
